A study of Mus musculus with 119 samples.

Results

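The 42 genes described here encode the core cell cycle and DNA replication machinery: the D-type and E-type cyclins and their kinases, the CDK inhibitors, the E2F factors that switch on S phase genes, the proteins that license and run replication forks, the enzymes that make deoxynucleotides, and the cyclins, kinases and motors of mitosis. They were taken by symbol from a list of 42 names, all 42 were found among the 18098 genes of the deposited table, and all 42 passed the filter on low values. The rule used no measured value, but the list was drawn up with earlier results of these data known.

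Mouse bone marrow-derived macrophages (BMDMs) were grown for 7 days in L-cell conditioned medium, a source of the macrophage growth factor CSF-1, replated overnight in low serum and stimulated with LPS at 100 ng/ml, which signals through TLR4. The RNA-seq compared blocks at successive steps of the TPL-2 to ERK pathway, with TPL-2 (encoded by Map3k8) activating MKK1/2, ERK1/2 and then RSK and the transcription factors ELK1 and ELK4. The libraries came from C57BL/6(NIMR) wild-type (WT) cells (22 libraries, unstimulated or given LPS for 0.5, 1 or 2 h), Map3k8[D270A] cells with kinase-inactive TPL-2 (24 libraries, the same times), Elk1-/-Elk4-/- cells (16 libraries, the same times), Nfkb1[SS/AA] cells, whose p105 lacks the serines phosphorylated by IKK (18 libraries, up to 1 h of LPS), WT cells given the solvent DMSO for 10 min (3 libraries), WT cells given the MKK1/2 inhibitor PD0325901 at 0.1 µM (21 libraries, without LPS for 10, 40 or 70 min, or with LPS for 0.5 or 1 h), and WT cells given the RSK inhibitor RSKi47 at 2 µM (15 libraries, up to 2 h of LPS). Groups held 3 to 6 libraries, and the inhibitors were added 10 min before LPS. Each value is a normalised expression level on a log2 scale as deposited, so a difference of 1 is a 2-fold difference if the scale is a plain log2. The depth of each library cannot be read from the table, which holds no counts, and the study's methods give only a typical yield.

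Untreated WT libraries exist only in the experiment that also holds the Map3k8[D270A] libraries. For Elk1-/-Elk4-/-, Nfkb1[SS/AA], DMSO, PD0325901 and RSKi47 cells the genotype or agent and the experiment therefore cannot be told apart in any comparison with untreated WT cells. Elk1 was at 6.36 in unstimulated Elk1-/-Elk4-/- cells and at 9.14 in WT cells, and Elk4 was at 5.71 and 7.72. The Map3k8 and Nfkb1 alleles are point mutations, which the level of their mRNA cannot check. The macrophage markers Adgre1, Csf1r and Cd68 lay between 14.8 and 15.8 in the mean of every group. In bulk RNA, fewer cycling cells and less mRNA in each cycling cell cannot be told apart.

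D-type cyclins bind Cdk4 and Cdk6 in G1 and, with cyclin E and Cdk2, inactivate the retinoblastoma protein, which frees E2F factors to activate the genes of S phase. The MCM helicase is loaded at origins by Cdc6 and Cdt1, and its activation starts replication; the genes of G2 and mitosis are switched on later through promoter elements named CHR and CCAAT. Macrophages grown in CSF-1 divide, and inflammatory stimulation is known to halt their proliferation.

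The promoters of these genes were searched for 3 elements known from cell cycle genes, and 4 promoters are printed below because their genes stand for licensing (Cdc6), the helicase (Mcm6) and mitosis (Mki67 and Ccnb2) in the results that follow. RefSeq promoters of 250 bases before and 50 bases after the start (GRCm38.p6) were matched for 36 of the 42 genes. An E2F element, spelled TTTCGCGC, TTTGGCGC, TTTCCCGC or TTTGCCGC on either strand, was present for 9 of 36 genes (25%, against 2.6% of 27025 symbols), namely Cdk2, E2f2, Cdc6, Cdt1, Mcm3, Mcm5, Mcm6, Mcm7 and Cdk1. Of the groups, 7 of the 14 replication, nucleotide and E2F genes and 1 of the 14 mitotic genes held it. TTTCGCGC and TTTGGCGC can overlap on opposite strands, as they do in Mcm5 and Mcm6, and such a pair is counted once for the gene. The CHR element, spelled TTTGAA or TTCGAA, was present for 15 of 36 genes (41.7%, against 21.7%), with 11 of the 14 mitotic and 4 of the 14 replication, nucleotide and E2F genes holding it. The CCAAT box was present for 27 of 36 genes (75%, against 41.1%), with 13 of the 14 mitotic and 10 of the 14 replication, nucleotide and E2F genes holding it. The difference between roles was not tested. The promoters are written 5′ to 3′ in the direction of the gene and end at the base before the start used for the promoter. For Cdc6 and Mki67 that start lies inside the gene span (chr11:98907709-98923942 and chr7:135689784-135716450). The whole Cdc6 stretch and part of the Mki67 stretch therefore lie within the gene span. Capitals mark the elements named above.
Cdc6, chr11:98907901-98908150, plus strand: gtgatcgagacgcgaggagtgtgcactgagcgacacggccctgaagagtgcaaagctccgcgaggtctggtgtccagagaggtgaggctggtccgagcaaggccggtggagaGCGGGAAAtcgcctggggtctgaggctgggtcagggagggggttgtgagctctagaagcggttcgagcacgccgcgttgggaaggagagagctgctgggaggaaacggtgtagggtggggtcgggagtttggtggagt
Mcm6, chr1:128359706-128359955, minus strand: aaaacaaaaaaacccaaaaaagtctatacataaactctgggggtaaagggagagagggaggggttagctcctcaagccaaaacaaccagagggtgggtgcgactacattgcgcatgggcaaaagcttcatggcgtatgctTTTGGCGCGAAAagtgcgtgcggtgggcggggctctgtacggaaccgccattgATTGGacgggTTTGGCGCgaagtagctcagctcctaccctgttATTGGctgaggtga
Mki67, chr7:135716380-135716629, minus strand: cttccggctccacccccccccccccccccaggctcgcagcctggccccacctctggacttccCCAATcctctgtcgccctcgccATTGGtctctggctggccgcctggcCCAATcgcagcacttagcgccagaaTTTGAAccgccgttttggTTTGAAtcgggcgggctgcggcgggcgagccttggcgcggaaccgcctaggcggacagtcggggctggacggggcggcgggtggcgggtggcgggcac
Ccnb2, chr9:70421555-70421804, minus strand: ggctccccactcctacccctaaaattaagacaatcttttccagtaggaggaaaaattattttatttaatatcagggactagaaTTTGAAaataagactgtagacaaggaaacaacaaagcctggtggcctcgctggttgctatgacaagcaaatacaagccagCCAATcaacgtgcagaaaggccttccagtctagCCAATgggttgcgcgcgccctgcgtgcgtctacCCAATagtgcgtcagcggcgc
Cdc6 carried 1 E2F element on the opposite strand, Mcm6 carried the overlapping pair, a second TTTGGCGC and 2 CCAAT boxes, and Mki67 and Ccnb2 carried CHR and CCAAT elements and no E2F element of these spellings. A match of letters is a description of the promoter and not evidence that a factor binds there.

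In WT cells the cell cycle genes hardly moved within 0.5 h of LPS. Cdkn1a (chr17:29090979-29100722), which encodes the CDK inhibitor p21, was the only one of the 42 to pass the test in the fit without pairing (limma, adjusted p = 1.89e-10), and none fell; at an unadjusted p under 0.05 the count was also 1. Over all genes tested, 7.82% rose and 3.81% fell. Cdkn1a lay at 13.24 to 13.46 (median 13.33, n = 6) without LPS and at 13.79 to 14.37 (median 14.06, n = 6) at 0.5 h, with no overlap, a rise of 0.72 (SE 0.08). WT libraries with the same replicate number deviated together, and with the replicate number as a block 5 genes rose and none fell: Cdkn1a, the cyclin Ccne2, its kinase Cdk2, the mitotic kinase Aurka and the kinetochore motor Cenpe (background 11.9% and 9.97%). The additional 4 rises were small, between 0.11 and 0.19.

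At 1 h of LPS, 3 genes rose and 4 fell in WT cells, against 23.8% and 23.0% of all genes tested. Cdkn1a reached 14.81 to 15.27, a rise of 1.72 (SE 0.08, limma adjusted p = 2.37e-26). Mki67 (chr7:135689784-135716450), which encodes the coat protein of mitotic chromosomes used as a proliferation marker, lay at 10.86 to 12.15 (median 11.15) without LPS and at 12.23 to 12.87 (median 12.54) at 1 h. The groups did not overlap, and the rise was 1.21 (SE 0.20, limma adjusted p = 1.19e-06). The cyclin Ccnd2 (chr6:127125162-127152188) lay at 8.66, 8.82, 8.79, 9.21, 9.27 and 9.37 without LPS and at 9.63, 9.30, 9.53, 9.64, 9.58 and 9.86 at 1 h in replicates 4 to 9, a rise of 0.57 (SE 0.13, limma adjusted p = 0.000134). The genes that fell at 1 h were Cdkn1b, which encodes the CDK inhibitor p27 (by 0.41, SE 0.06, limma adjusted p = 5.30e-08), E2f2 (by 0.39, SE 0.14), the licensing factor Cdt1 (by 0.27, SE 0.05) and the cyclin Ccnd3 (by 0.21, SE 0.06).

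Paired by replicate number, the same comparison at 1 h gave 14 rises and 10 falls (background 29.6% and 28.0%). The 7 genes above were among them. The other rises included 7 mitotic genes, Cenpe (0.35, SE 0.06), Aurka (0.27, SE 0.03), the mitotic cyclin Ccnb1 (0.26, SE 0.05), the anaphase activator Cdc20 (0.23, SE 0.05), Kif23, Bub1 and Kif11, beside Cdc45, Rrm2, Cdk2 and Mcm3. The other falls were those of Ccne1, Ccnd1, Cdkn2c, Tyms, Mcm7 and Mcm6. So the number of cell cycle genes that passed at 1 h depended on whether the shared deviation of same-numbered libraries was modelled.

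**Figure D1:**
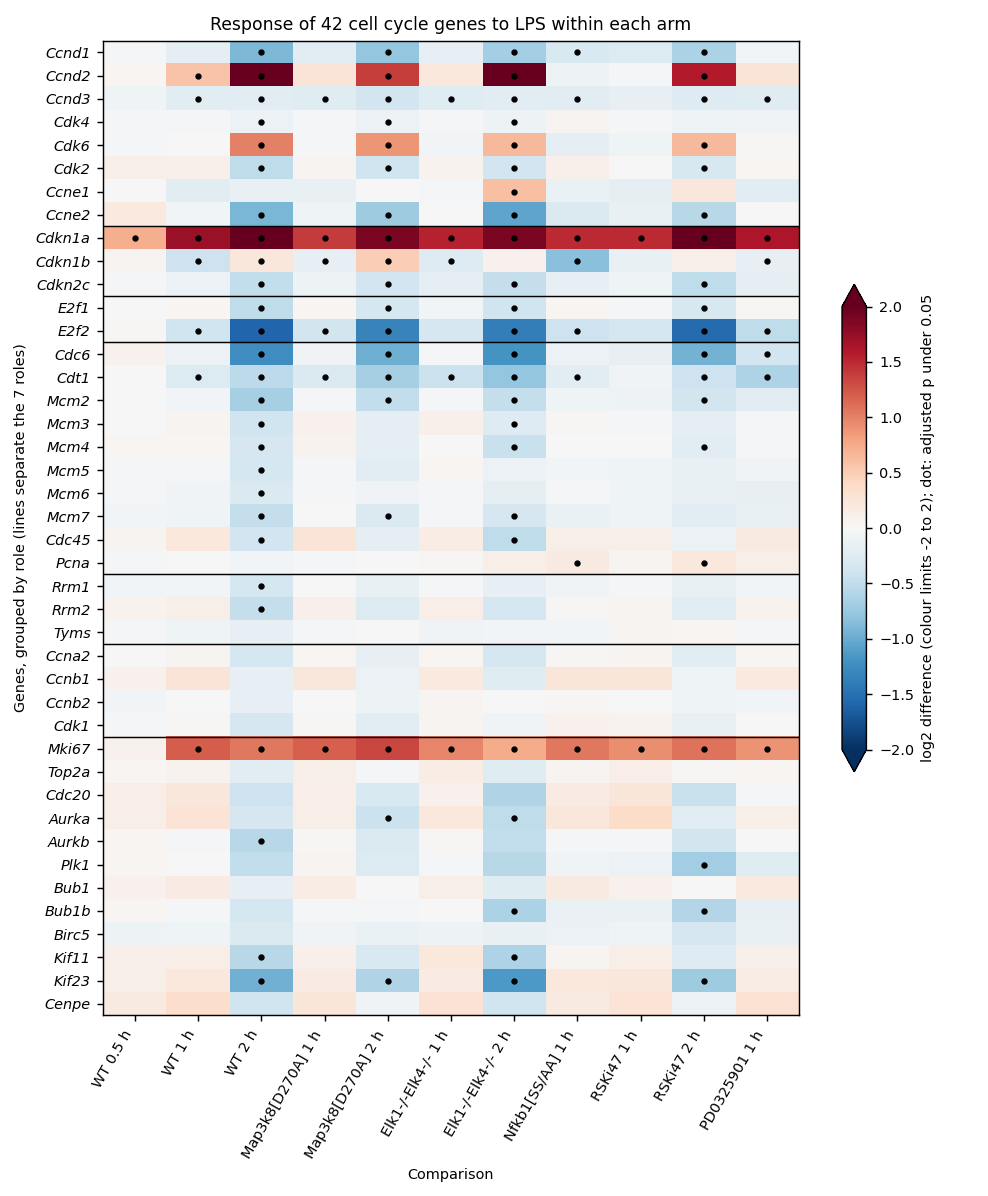
Heat map of the change with LPS within each arm for all 42 genes in order of role. Colour gives the log2 difference from the same arm without LPS, with limits at -2 and 2, and a dot marks an adjusted p under 0.05 in limma; the 2 h columns of WT, Map3k8[D270A], Elk1-/-Elk4-/- and RSKi47 cells are mostly blue over the replication genes, while Cdkn1a and Mki67 are red in every column at 1 h.

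At 2 h of LPS most genes of the set were lower than without it. Of the 42 genes, 5 rose and 22 fell, against 34.7% and 36.8% of all genes tested, and the median change was -0.35 for the 42 genes and -0.02 for all genes. With replicates 8 and 9, which lack a 2 h library, left out at every time, 5 rose and 17 fell.

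The cyclins and kinases of G1 went in opposite directions at 2 h. Ccnd2 lay at 11.86, 11.66, 12.03 and 11.87 at 2 h in replicates 4 to 7, all above every unstimulated library, a rise of 2.84 (SE 0.14, limma adjusted p = 4.95e-25). Its partner kinase Cdk6 (chr5:3341004-3531008) rose from 11.64 to 12.18 (median 11.92, n = 6) to 12.91, 12.94, 12.77 and 13.02, a rise of 1.01 (SE 0.11, limma adjusted p = 1.80e-11). By contrast the cyclin Ccnd1 (chr7:144929931-144939831) lay at 12.97, 13.11, 13.15, 13.58, 13.44 and 13.69 without LPS and at 12.29, 12.26, 12.37 and 12.81 at 2 h. It fell by 0.89 (SE 0.15, limma adjusted p = 3.72e-07), with no overlap, and in both groups replicate 7 lay above replicates 4 to 6. Ccne2 fell by 0.92 (SE 0.21), Cdk2 by 0.51, Ccnd3 by 0.22 and Cdk4 by 0.12.

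Both CDK inhibitors of the p21 and p27 family were up at 2 h. Cdkn1a stood at 15.22 to 15.43, a rise of 2.01 (SE 0.09, limma adjusted p = 1.49e-27). Cdkn1b (chr6:134920401-134925525), which had fallen at 1 h to 8.92 to 9.17, stood at 9.60, 9.73, 9.82 and 9.63 at 2 h, 0.22 (SE 0.07, limma adjusted p = 0.00319) above its unstimulated level of 9.28 to 9.58. The third inhibitor, the Cdk4 and Cdk6 inhibitor Cdkn2c (p18), fell by 0.50.

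**Figure D2:**
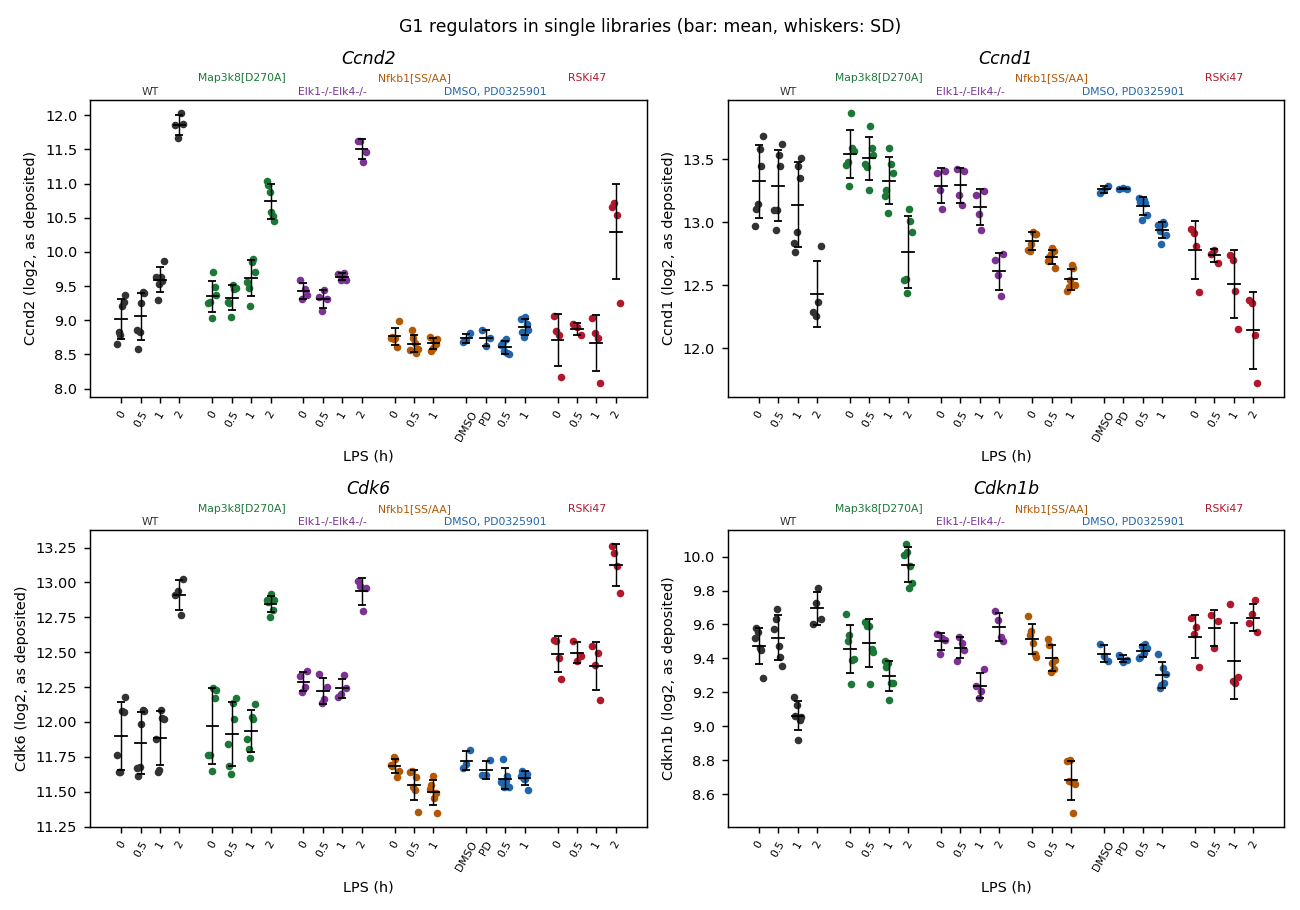
Levels of Ccnd2, Ccnd1, Cdk6 and Cdkn1b (log2, as deposited) in single libraries of each group, with bars at the mean and whiskers of 1 SD; the horizontal axis gives the arm and the LPS time in hours. Ccnd2 at 2 h is highest in WT cells (11.66 to 12.03) and lower in Map3k8[D270A] and RSKi47 cells, and RSKi47 replicate 4 lies at 9.26.

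The E2F factors and the replication genes fell together at 2 h. E2f2 (chr4:136172274-136196057) lay at 8.24 to 9.06 (median 8.64, n = 6) without LPS and at 6.94, 7.05, 7.00 and 7.17 at 2 h. It fell by 1.59 (SE 0.15, limma adjusted p = 8.72e-14), and E2f1 fell by 0.50. Cdc6 (chr11:98907709-98923942) lay at 7.49 to 8.22 (median 7.65, n = 6) and then at 6.52, 6.45, 6.38 and 6.70, a fall of 1.24 (SE 0.14, limma adjusted p = 6.41e-12). Of the 10 genes of licensing and the fork, 9 fell, with Mcm2 by 0.67, Cdt1 by 0.52, Mcm7 by 0.47, Mcm3 by 0.40, Cdc45 by 0.39, Mcm5 by 0.35, Mcm4 by 0.33 and Mcm6 by 0.29 after Cdc6; Pcna, the sliding clamp, did not pass. The Mcm5 change was the weakest among those named in full (limma adjusted p = 0.0129): it lay at 10.56, 10.64, 10.69, 11.02, 11.22 and 10.95 without LPS and at 10.39, 10.39, 10.39 and 10.81 at 2 h, and replicate 7 overlapped the unstimulated libraries. Among the enzymes of deoxynucleotide synthesis, the ribonucleotide reductase subunits Rrm2 and Rrm1 fell by 0.48 and 0.35 and Tyms did not pass. With replicates 8 and 9 left out, Mcm5, Mcm6, Cdc45, Rrm1 and Rrm2 no longer passed. Of 41 other replication genes in a list kept beside the 42, 35 fell and 1 rose at 2 h (median -0.44), where 36.8% of all genes fell and 34.7% rose.

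Fewer of the mitotic genes passed at 2 h, although the median change was -0.38 for the 12 genes of mitosis and chromosome segregation and -0.40 for the 10 genes of licensing and the fork, and the mitotic genes varied more between libraries of a group. None of the 4 genes Ccna2, Ccnb1, Ccnb2 and Cdk1, which drive S, G2 and M, passed in either direction at 2 h. Of the 12 genes of mitosis and chromosome segregation, Kif23 fell by 0.96 (SE 0.22, limma adjusted p = 9.79e-05), Kif11 and Aurkb each fell by 0.55, and Mki67 remained up, at 12.33, 12.37, 12.21 and 12.56, by 1.06 (SE 0.23, limma adjusted p = 4.42e-05). Top2a, the topoisomerase that untangles sister chromatids, differed by -0.22 (limma adjusted p = 0.39) and Cdc20 by -0.41 (limma adjusted p = 0.17). With the replicate block 9 further genes fell, namely Plk1, Cdc20, Bub1b, Cenpe, Ccna2, Birc5, Cdk1, Aurka and Top2a, giving 5 rises and 31 falls (background 37.4% and 40.6%). In a list of 51 other mitosis genes, 23 fell and 3 rose (median -0.38). In a list of 29 other G1 and pocket-protein genes, 8 rose and 13 fell. Over all genes tested 36.8% fell and 34.7% rose in the same fit without the block, so the falls in both lists lay nearer to the background than those of the replication list.

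**Figure D3:**
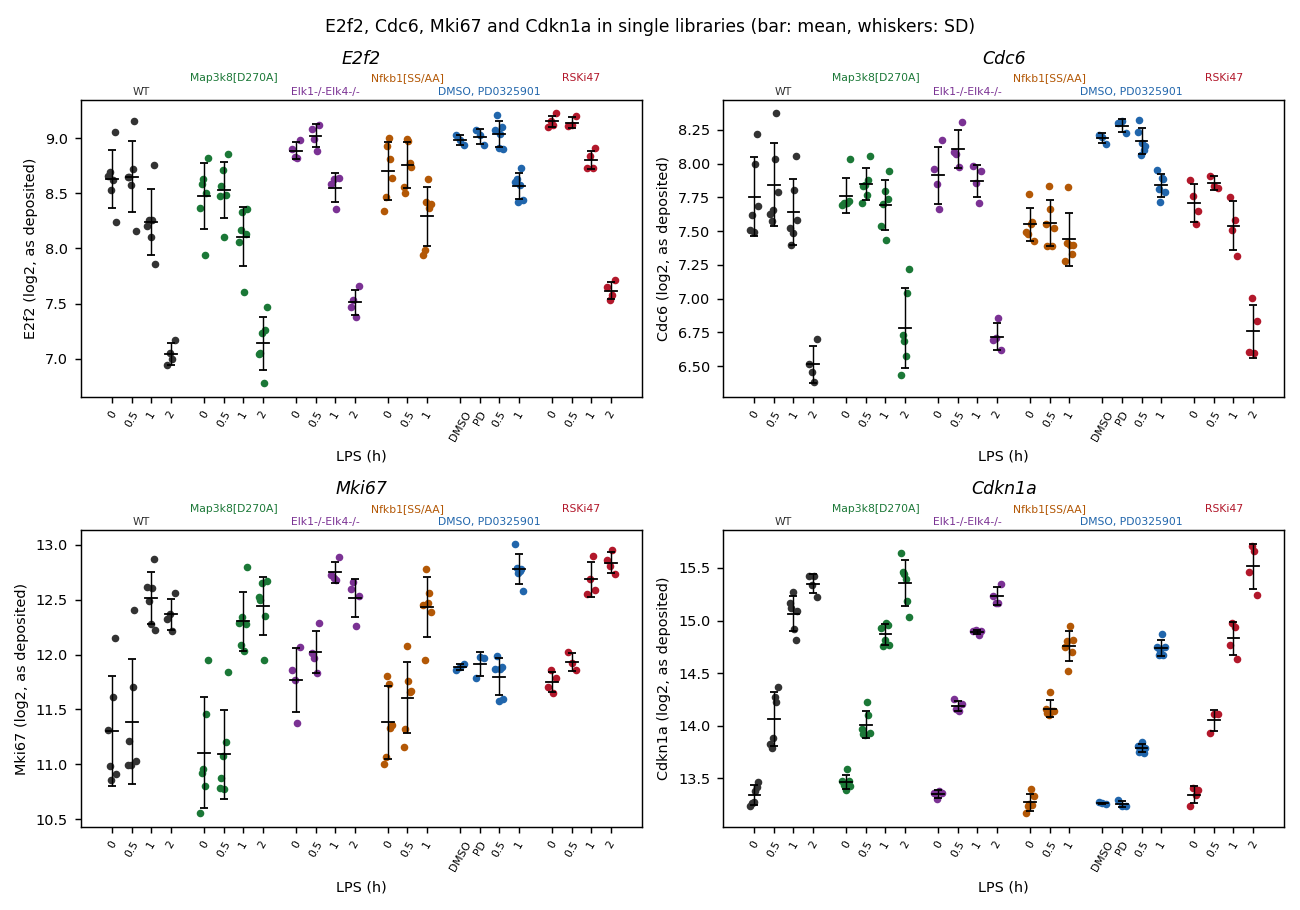
Levels of E2f2, Cdc6, Mki67 and Cdkn1a (log2, as deposited) in single libraries of each group, with bars at the mean and whiskers of 1 SD; the horizontal axis gives the arm and the LPS time in hours. E2f2 and Cdc6 fall by 2 h and Cdkn1a and Mki67 rise by 1 h in each arm sampled at those times.

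Libraries of the same group differed more in the mitotic genes than in most genes. The pooled SD within groups had a median of 0.0986 over all genes tested, 0.217 over the 42 genes, 0.165 over the 13 replication and nucleotide genes and 0.300 over the 16 genes of S, G2 and M cyclins and mitosis. In unstimulated WT cells the mean level of those 16 genes ran from 8.74 to 9.98 over 6 libraries. Replicate 8 was the highest in all 16 and in 12 of the 13 replication genes at 0, 0.5 and 1 h alike, and replicate 9 was the lowest in 13 of the 16 without LPS. Among Map3k8[D270A] cells, replicate 6 was likewise the highest in 16 of 16 mitotic genes. The DMSO libraries, in contrast, held the mean of the 16 genes between 9.84 and 9.85. The cyclin Ccnb2 had a pooled SD of 0.52 in WT, 0.034 in DMSO and 0.069 in RSKi47 libraries. Each comparison of the mitotic genes with WT cells uses these WT libraries, but its SE comes from 1 spread shared over all groups of the fit. The SE therefore does not follow the WT spread itself. For Cdc20 the pooled SD was 0.362 over all libraries, 0.505 in WT and 0.0335 in DMSO libraries.

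**Figure D4:**
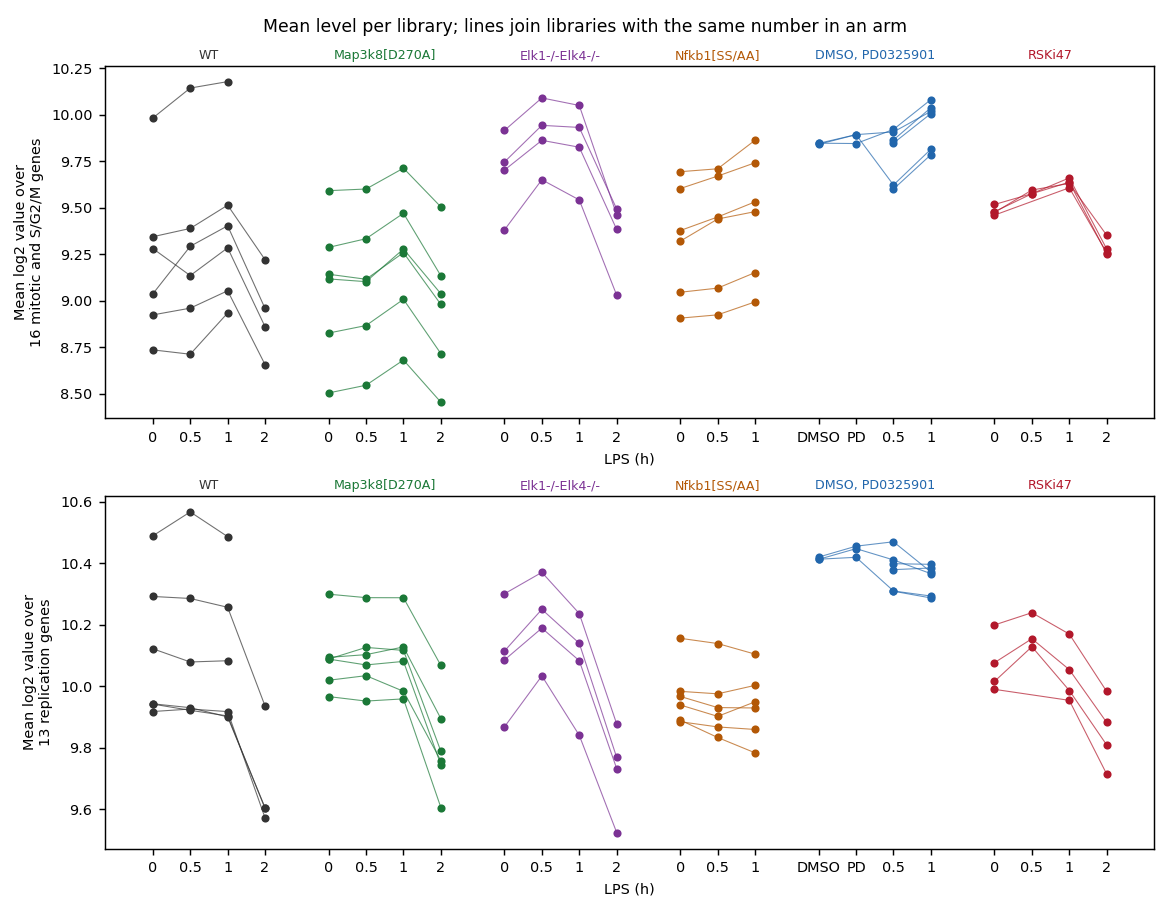
Mean level of 16 mitotic genes and of 13 replication and nucleotide genes in each library (log2, as deposited), by arm and LPS time in hours, with lines joining libraries of the same replicate number. Lines for WT and Map3k8[D270A] replicates run apart and nearly parallel, with WT replicate 8 on top at 9.98 without LPS, while DMSO, PD0325901 and RSKi47 libraries lie close together.

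In cells without TPL-2 kinase activity Ccnd2 rose less with LPS than in WT cells, and the other 41 genes differed by less. Between Map3k8[D270A] and WT cells none of the 42 genes passed without LPS or at 0.5 h (limma; 1 and 2 at an unadjusted p under 0.05, with 0.606% higher and 0.833% lower among all genes without LPS and 0.480% and 0.892% at 0.5 h). At 1 h only Cdkn1b passed, higher by 0.23 (SE 0.06, limma adjusted p = 0.00644; background 5.14% higher and 4.64% lower), with levels of 9.15 to 9.38 against 8.92 to 9.17. At 2 h, 2 genes were higher and 2 lower, against 14.6% and 13.1% of all genes tested, and only 2 passed without WT replicate 5 or 6 or Map3k8[D270A] replicate 4. Ccnd2 lay at 11.04, 10.98, 10.87, 10.58, 10.53 and 10.45 in replicates 1 to 6, all below the 4 WT libraries, a difference of -1.11 (SE 0.14, limma adjusted p = 9.64e-09). With WT replicates 4 to 6 and Map3k8[D270A] replicates 1 to 3 alone, a split by number that the labels do not name, the difference was -0.88. With the remaining replicates it was -1.35, set against 1 WT library at 2 h, whose spread is taken from the other groups. Cdkn1b was higher by 0.26 (SE 0.07, limma adjusted p = 0.00283), at 9.81 to 10.08 against 9.60 to 9.82, Pcna was higher by 0.16 (SE 0.06) and Ccnd3 lower by 0.19 (SE 0.07). With the replicate number as a block 1 gene was higher and 3 lower (background 14.6% and 13.5%), since Pcna no longer passed (limma adjusted p = 0.0542) and Cdt1 did.

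Ccnd2 was not lower in Map3k8[D270A] cells before LPS, where it lay at 9.26, 9.26, 9.03, 9.70, 9.49 and 9.37, 0.33 (SE 0.13, limma adjusted p = 0.212) above WT. The rise with 2 h of LPS was 1.39 in Map3k8[D270A] and 2.84 in WT cells, and the test of that difference gave -1.45 (SE 0.19, limma adjusted p = 6.73e-08; 6.94% and 8.60% of all genes differed up and down). Cdkn1b also differed in its 2 h response, by 0.28 (SE 0.09, limma adjusted p = 0.0291), but not without WT replicate 4 (limma adjusted p = 0.118). These 2 genes passed in the fit without pairing. With the replicate number as a block 8 responses were higher and 5 lower (background 14.2% each way), with differences of -1.58 for Ccnd2 and between -0.24 and 0.33 for Cdk6, Kif23, E2f2 and the other 9 genes. At 1 h no response differed (limma; 2 at an unadjusted p under 0.05; background 0.724% and 1.30%). For the genes of the proliferation set at 2 h the differences between genotypes were small: Cdkn1a 0.01 (SE 0.09), E2f2 0.10 (SE 0.15), Cdk6 -0.06 (SE 0.11), Mcm5 0.12 (SE 0.13), Mki67 0.08 (SE 0.23), Top2a 0.09 (SE 0.23), Cdc20 -0.04 (SE 0.27) and Ccnd1 0.33 (SE 0.15), none past the test. Within Map3k8[D270A] cells, 2 h of LPS raised 5 genes and lowered 14 (background 34.9% and 34.6%).

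Elk1-/-Elk4-/- cells held higher levels of some mitotic transcripts than WT cells. Without LPS 6 genes were higher and 2 lower (27.2% and 24.6% of all genes tested), at 0.5 h 17 and 1 (22.4% and 22.0%), at 1 h 7 and 3 (27.2% and 26.2%), and at 2 h 5 and 2 (27.7% and 23.1%). The median difference over the 12 genes of mitosis and chromosome segregation was 0.48, 0.60, 0.46 and 0.39 at these times, and the difference between times was not tested. Of these 12 genes, 3 were called before LPS, 11 after 0.5 h, 5 after 1 h and only Cenpe after 2 h. In the fit without a block, the higher share of the 42 genes exceeded that of all genes tested at 0.5 h. It was below that share at the other times. At 0.5 h Cenpe was higher by 0.84 (SE 0.25), Ccnb1 by 0.79 (SE 0.27), Bub1 by 0.68 (SE 0.21), Kif11 by 0.67 (SE 0.23), Cdc20 by 0.67 (SE 0.27), Mki67 by 0.64 (SE 0.23) and Top2a by 0.55 (SE 0.23). Cenpe (chr3:135212563-135273540), the motor that aligns chromosomes at the metaphase plate, was higher at all times. It lay at 10.10, 10.01, 9.72 and 10.24 without LPS against 9.30, 8.96, 8.89, 9.40, 10.08 and 8.82 in WT cells, a difference of 0.78 (SE 0.25, limma adjusted p = 0.00751). WT replicate 8 alone reached the Elk1-/-Elk4-/- range. The count of members that passed ran from 5 to 21 without LPS, from 5 to 25 at 0.5 h and from 3 to 23 at 1 h as single replicates were left out; the high counts came without WT replicate 8 and the low ones without Elk1-/-Elk4-/- replicate 4, or also replicate 1 before LPS. At 0.5 h the count was 9 or 10 without WT replicate 4, 6 or 9 or Elk1-/-Elk4-/- replicate 1 or 2, and at 1 h it was 6 without WT replicate 6 or 9. With the replicate number as a block 15 genes were higher and 3 lower without LPS, and 21 and 1 at 0.5 h. At 1 h the block gave 13 higher and 3 lower, and at 2 h 10 and 4. The share of all genes under the block is not given for this comparison, so these counts have no background.

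Some genes outside mitosis differed too. Mcm6 (chr1:128331575-128359705) was lower at all 4 times, by 0.40 (SE 0.11, limma adjusted p = 0.00126) without LPS and by 0.31 at 2 h, with levels of 11.41, 11.41, 11.13 and 11.64 against 11.59 to 12.09. Cdk6 was higher by 0.39 (SE 0.11) without LPS, by 0.37 at 0.5 h and by 0.35 at 1 h, and Ccnd2 was higher by 0.41 (SE 0.14, limma adjusted p = 0.0123) before LPS, at 9.58, 9.31, 9.46 and 9.37. At 2 h Ccne1 was higher by 0.59 (SE 0.20), at 7.96, 8.06, 8.11 and 8.20 against 7.37 to 7.56, E2f2 by 0.47 (SE 0.17), Rrm1 by 0.40 (SE 0.16) and Cdk2 by 0.30 (SE 0.07). Ccnd2 at 2 h was 11.62, 11.62, 11.32 and 11.46, below all 4 WT libraries, a difference of -0.35 (limma adjusted p = 0.0554). Ccnd1 (-0.03, SE 0.15), Cdkn1a (0.01, SE 0.09) and Mcm5 (-0.20, SE 0.13) did not pass without LPS, nor at the other times.

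The 2 h response to LPS differed in Elk1-/-Elk4-/- cells for 3 genes (8.17% and 8.76% of all genes differed up and down). Ccnd2 rose less than in WT cells, with a difference of -0.76 (SE 0.21, limma adjusted p = 0.00726). Ccne1 (0.75, SE 0.27) and Cdt1 (-0.26, SE 0.09) passed narrowly, and each was lost when single replicates were left out. At 1 h no response differed (limma; 0 at an unadjusted p under 0.05; background 0.404% and 0.942%). Markers of neutrophils and their precursors moved with this genotype: all 5 of 9 that were tested were higher, and their summed linear level was 1052 to 1477 without LPS against 83.5 to 148 in WT cells. S100a8 stood at 7.88 against 4.92 and Ngp at 8.21 against 4.18, while Ly6g and Elane stood near the floor of the table at 0.07 and 0.42; the part of these cells in the mitotic result was not tested.

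In Nfkb1[SS/AA] cells the cyclin Ccnd1, its kinase Cdk6 and the helicase subunits Mcm4 and Mcm5 were lower than in WT cells at all 3 times. No gene was higher and 5 were lower without LPS (16.9% and 15.1% of all genes tested), none and 9 at 0.5 h (16.7% and 15.6%), and 1 and 11 at 1 h (20.5% and 21.9%), so the share of the 42 that was lower lay near that of all genes. No mitotic gene was among the lower ones. These counts come from the fit without pairing. With the replicate number as a block none was higher and 8 were lower without LPS (background 17.0% and 15.5%), none and 13 at 0.5 h (16.9% and 15.7%), and 2 and 13 at 1 h (20.8% and 22.1%), with Mcm2, Mcm3, Mcm6 and Mcm7 then lower at all 3 times. Ccnd1 stood at 12.77 to 12.92 without LPS and at 12.46 to 12.66 at 1 h, where WT cells stood at 12.76 to 13.51. The differences of -0.47, -0.56 and -0.59 (SE 0.11 each, limma adjusted p = 0.000423, 2.45e-05 and 5.09e-06) came without overlap at 0, 0.5 and 1 h. Cdk6 was lower by 0.21, 0.30 and 0.39 and Mcm5 by 0.27, 0.29 and 0.30 at the same times. Mcm4 was lower by 0.22, 0.26 and 0.26. When only Nfkb1[SS/AA] and WT libraries entered the fit, 1, 4 and 7 genes passed in place of 5, 9 and 12. The count before LPS was also 1 without WT replicate 7 or 9 or Nfkb1[SS/AA] replicate 6, and at 0.5 h it was 5 without WT replicate 7.

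Ccnd2 and Cdkn1b separated Nfkb1[SS/AA] from WT cells only after LPS. At 1 h Ccnd2 lay at 8.76, 8.55, 8.59, 8.69, 8.66 and 8.72, below every WT library, a difference of -0.93 (SE 0.14, limma adjusted p = 1.22e-08), and without LPS the difference was -0.25 (limma adjusted p = 0.144). Cdkn1b lay at 8.80, 8.68, 8.80, 8.67, 8.49 and 8.66 at 1 h against 8.92 to 9.17, a difference of -0.38 (SE 0.06, limma adjusted p = 6.08e-08). Cdkn1a was lower by 0.31 (SE 0.07, limma adjusted p = 0.000203) and Ccne2 by 0.41 (SE 0.15) at 1 h. The 1 h response differed from that of WT cells for Ccnd2 (-0.67, SE 0.19, limma adjusted p = 0.0153) and Cdkn1b (-0.42, SE 0.08, limma adjusted p = 0.000123), against 1.77% and 4.30% of all genes; the Ccnd2 call was lost without WT replicate 4 (limma adjusted p = 0.073). With the block Pcna passed as well, with a difference of 0.19 (limma adjusted p = 2.24e-06, background 4.10% and 7.52%). E2f2 (0.05), Mki67 (-0.08), Top2a (-0.05) and Cdc20 (0.30) did not pass at 1 h. Within Nfkb1[SS/AA] cells 1 h of LPS raised 3 genes and lowered 5 (22.5% and 21.9% of all genes), and with the replicate number as a block 12 rose and 13 fell (27.9% and 26.1%).

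DMSO-treated cells differed from untreated WT cells in most of the proliferation genes, although they had no kinase inhibitor. After 10 min in DMSO 25 of the 42 genes were higher and none lower than in unstimulated WT cells, against 12.5% and 11.1% of all genes tested, with a median difference of 0.42. Ccnb2 was higher by 0.78 (SE 0.26), Ccna2, Ccnb1 and Plk1 each by 0.75 and Cdc20 by 0.74 (SE 0.25, limma adjusted p = 0.0242). Cdc20 lay at 8.88, 8.95 and 8.90 in DMSO libraries and at 7.51 to 8.99 in WT libraries, inside the WT range. Cdk2 (0.30, SE 0.06, limma adjusted p = 0.000108), Cdt1 (0.22, SE 0.06) and Ccnd3 (0.23, SE 0.08) differed without overlap. Ccnd1 (-0.06), Ccnd2 (-0.28), Cdk6 (-0.17), Cdkn1a (-0.08), E2f2 (0.36) and Mcm5 (0.29) did not pass. The count fell to 8 without DMSO replicate 1 or 2, to 9 without DMSO replicate 3 and to 14 without WT replicate 5, 6 or 9, rose to 34 without WT replicate 8, and was 3 when only these libraries entered the fit. The summed neutrophil markers were 187 to 305 in DMSO and 83.5 to 148 in WT libraries; their part was not tested.

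PD0325901 added for 10 min changed none of the 42 genes relative to DMSO (limma; 0 at an unadjusted p under 0.05), and 0% of all genes passed. The 42 differences lay between -0.07 and 0.10. Between 70 and 10 min of PD0325901 without LPS, Cdt1 was higher by 0.23 (SE 0.07, limma adjusted p = 0.0355; 2.62% and 3.47% of all genes), at 10.60, 10.42 and 10.36 against 10.30, 10.20 and 10.19; it did not pass without replicate 1, 2 or 3. Both comparisons stay inside the PD0325901 experiment. Ccnd1 (-0.28, SE 0.16) and Ccnd2 (-0.09, SE 0.19) did not pass over that hour.

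With LPS, PD0325901-treated cells stood apart from untreated WT cells in 31 genes at 0.5 h (28 higher, 3 lower; 14.5% and 15.0% of all genes) and 33 genes at 1 h (30 higher, 3 lower; 16.4% and 19.3%) with 6 libraries a group. Replicates 1 and 4, 2 and 5, and 3 and 6 were nearest to each other in these groups, and whether each pair is 1 culture sequenced again is not stated. If so, n is 3, and the SE and p values given below are too small. With each pair averaged, 7 genes passed at 0.5 h (6 higher, 1 lower) and 16 at 1 h (13 higher, 3 lower). The share of all genes with pairs averaged is not given, so whether these counts exceed the background cannot be read here. Both the comparison of PD0325901 with LPS and that of DMSO used untreated WT cells as the reference, at different times. At 1 h Ccnb1 was higher by 0.74, Ccnb2 by 0.72 (SE 0.22), Ccna2 by 0.68, Aurkb by 0.64, Plk1 by 0.63, Cdc20 by 0.61 (SE 0.21), Top2a by 0.57 (SE 0.17), E2f2 by 0.33 (SE 0.12) and Mcm5 by 0.27 (SE 0.09). The mean of the 16 mitotic genes was 9.79 to 10.08 in these libraries, beside 9.84 to 9.85 in DMSO libraries without LPS. Ccnd2, Cdkn1a and Cdk6 were lower. Ccnd2 lay at 9.02, 8.83, 8.75, 9.04, 8.95 and 8.85 at 1 h, below every WT library, a difference of -0.68 (SE 0.14, limma adjusted p = 2.75e-05), after -0.45 at 0.5 h. Cdkn1a was lower by 0.27 and 0.33 (SE 0.07, limma adjusted p = 0.00163 and 0.000120) and Cdk6 by 0.26 and 0.29 at 0.5 and 1 h. Without WT replicate 6 or 9 the count at 0.5 h was 17 or 19. The summed linear level of the neutrophil markers was 307 to 450 in PD0325901 and 85.4 to 215 in WT libraries at 1 h of LPS, with S100a9 at 7.12 against 5.51 and Ngp at 6.27 against 4.45. Their part in these differences was not tested.

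The LPS response was also read within the PD0325901 arm, against its libraries at 70 min without LPS. At 1 h Cdkn1a rose by 1.62 and Mki67 by 0.90, and Cdt1 fell by 0.61, E2f2 by 0.51, Cdc6 by 0.37 and Cdkn1b by 0.17, beside a fall of Ccnd3 (21.9% and 21.7% of all genes). The response differed from that of WT cells for Cdt1 alone (-0.34, SE 0.08, limma adjusted p = 0.00329; 1.10% and 2.48% of all genes), and this call was lost without PD0325901 replicate 1 (limma adjusted p = 0.157). The response of Ccnd2 differed by -0.32 (SE 0.21) and did not pass.

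**Figure D5:**
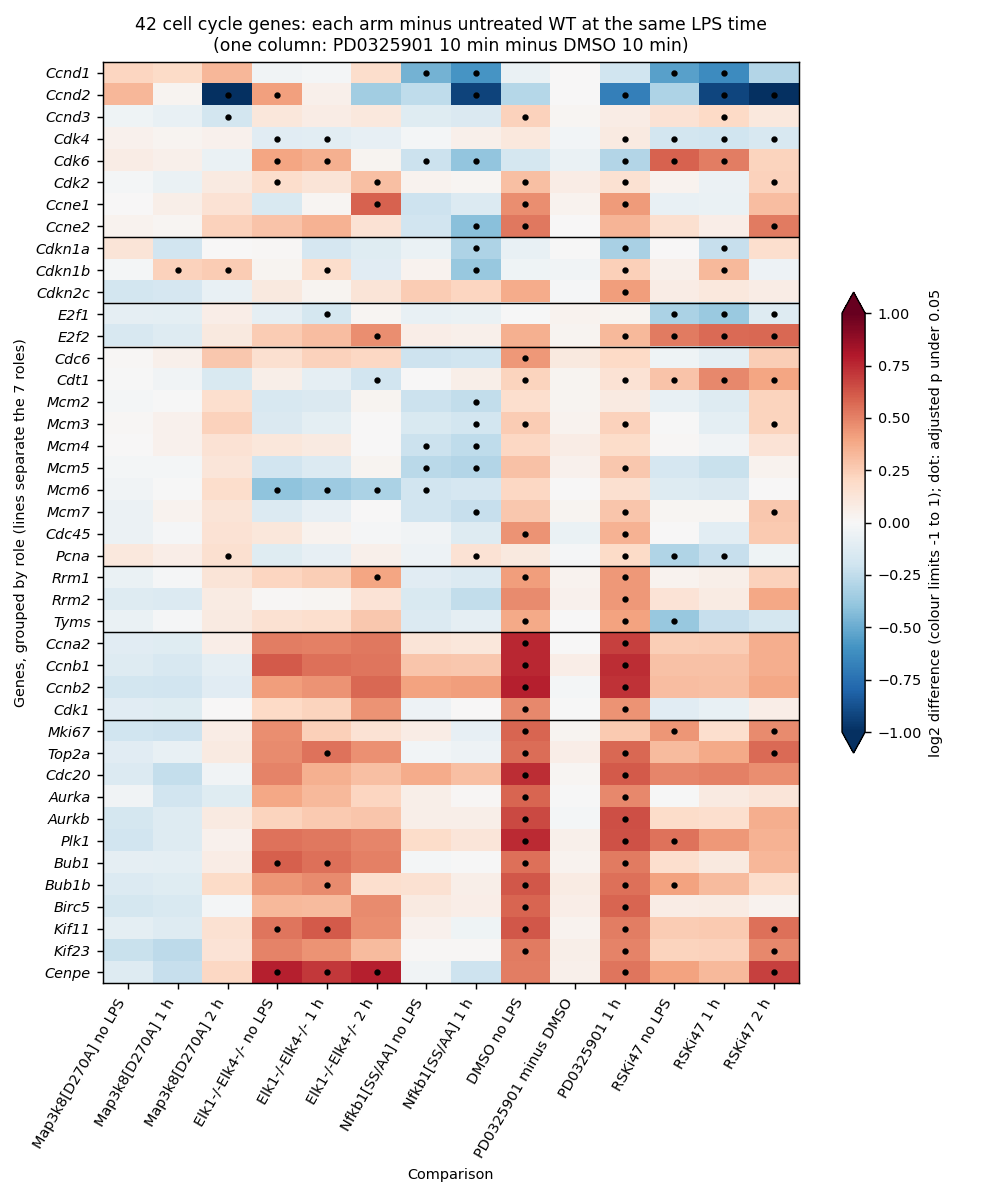
Heat map of the difference of each arm from untreated WT cells at the same LPS time for all 42 genes in order of role, with 1 column for PD0325901 minus DMSO at 10 min. Colour gives the log2 difference, with limits at -1 and 1, and a dot marks an adjusted p under 0.05 in limma; the DMSO and PD0325901 columns are red over the mitotic genes, the PD0325901 minus DMSO column is near white, and Ccnd2 is blue in the LPS columns of Map3k8[D270A] at 2 h, Nfkb1[SS/AA], PD0325901 and RSKi47 cells at 1 h.

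In RSKi47-treated cells Cdk4 and E2f1 were lower and E2f2 and Cdt1 higher than in untreated WT cells at every time. Without LPS 6 genes were higher and 5 lower (26.8% and 26.3% of all genes tested), at 0.5 h 5 and 4 (23.7% and 24.5%), at 1 h 5 and 6 (26.5% and 26.3%) and at 2 h 11 and 3 (27.5% and 24.6%), so the shares of the 42 that passed lay below those of all genes. Ccnd1 lay at 12.95, 12.92, 12.81 and 12.45 without LPS, a difference of -0.54 (SE 0.12, limma adjusted p = 0.000116), and was lower by 0.63 (SE 0.12) at 1 h. Cdk6 lay at 12.59, 12.58, 12.46 and 12.31, all above the WT libraries, a difference of 0.59 (SE 0.09, limma adjusted p = 9.44e-08). E2f2 lay at 9.11, 9.16, 9.12 and 9.23, also above every WT library, a difference of 0.52 (SE 0.13, limma adjusted p = 0.000538), and stayed higher by 0.49, 0.56 and 0.58 at 0.5, 1 and 2 h. The counts before LPS and at 0.5 and 1 h were 17, 22 and 18 without WT replicate 8, and the count at 2 h was 8 without WT replicate 6 and 9 without RSKi47 replicate 1 or 2. E2f1 was lower at every time, by 0.32 (SE 0.05) without LPS, and so was Cdk4, by 0.19, whereas Cdt1 was higher by 0.28, 0.39, 0.48 and 0.40.

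Among these genes Ccnd2 differed most at 1 and 2 h. It lay at 9.06, 8.84, 8.78 and 8.17 without LPS, at 9.04, 8.82, 8.74 and 8.08 at 1 h and at 10.66, 10.72, 10.54 and 9.26 at 2 h in RSKi47 replicates 1 to 4. The differences from WT were -0.31 (SE 0.15, limma adjusted p = 0.0802), -0.92 (SE 0.15, limma adjusted p = 1.96e-07) and -1.56 (SE 0.17, limma adjusted p = 8.50e-14). Replicate 4 was the lowest throughout and without it the differences at 1 and 2 h were -0.72 and -1.22. The 2 h response differed from that of WT cells by -1.26 (SE 0.22, limma adjusted p = 6.81e-06) for Ccnd2, by 0.25 (SE 0.08, limma adjusted p = 0.0130) for Pcna, and narrowly for Cdk6 (-0.37) and E2f1 (0.19), against 10.6% and 10.4% of all genes. At 1 h no response differed (limma; 4 at an unadjusted p under 0.05; background 2.26% and 3.27%).

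At 2 h the RSKi47 libraries also held more of 5 mitotic genes, Cenpe (0.69, SE 0.23), Top2a (0.57, SE 0.21), Kif11 (0.55), Kif23 (0.48) and Mki67 (0.47, SE 0.21), and of Ccne2, Cdk2, Mcm3 and Mcm7. Cdc20 (0.46, SE 0.25) and Mcm5 (0.03, SE 0.12) did not pass at that time, and Cdkn1a passed at 1 h only, lower by 0.23 (SE 0.08, limma adjusted p = 0.00930). The summed linear level of the stromal markers was 41.5 to 683 in RSKi47 libraries without LPS against 16.6 to 21.6 in WT libraries, the highest being replicate 4. In the group means Col1a1 stood at 5.55 against 2.48 and Col1a2 at 5.45 against 3.14. The other stromal markers stood low in both arms. Col3a1 was at 1.70 against 1.39, Pdgfra at -0.54 against -0.62 and Dcn at -0.867 against -0.872. The level of the ribosomal RNA precursor Rn45s was 18.1 to 19.2 without LPS against 15.2 to 15.8 in WT libraries, and 15.3 to 15.9 in RSKi47 libraries at 2 h. The summed neutrophil markers were 243 to 387 in RSKi47 and 86.5 to 213 in WT libraries at 2 h, with S100a9 at 6.57 against 5.06 and Ngp at 6.11 against 4.23. The part of any of these in the differences was not tested.

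The response to LPS within each arm had common members. Cdkn1a and Mki67 rose at 1 h in WT, Map3k8[D270A], Elk1-/-Elk4-/-, Nfkb1[SS/AA], PD0325901 and RSKi47 cells alike, and E2f2 and Cdc6 fell at 2 h in the 4 arms sampled then. Within Elk1-/-Elk4-/- cells 2 h of LPS raised 5 genes and lowered 19 (35.2% and 32.0% of all genes), and within RSKi47 cells it raised 5 and lowered 14 (32.5% and 29.7%). At 1 h the counts were 2 and 4 in Map3k8[D270A] (21.8% and 20.1%), 2 and 3 in Elk1-/-Elk4-/- (16.6% and 16.6%) and 2 and 0 in RSKi47 cells (15.0% and 14.0%). These counts come from the fit without a block, and same-numbered libraries also deviated together in most Map3k8[D270A] and RSKi47 libraries. With the replicate number as a block 14 genes rose and 5 fell after 1 h in Map3k8[D270A] cells (27.7% and 25.4% of all genes) and 5 rose and 29 fell after 2 h (38.4% and 39.4%). In RSKi47 cells 9 rose and 9 fell after 1 h (20.2% and 18.7%) and 7 rose and 29 fell after 2 h (35.9% and 34.1%). In Elk1-/-Elk4-/- cells the block gave 11 rises and 6 falls after 1 h and 6 rises and 32 falls after 2 h. The share of all genes under the block is not given for that arm. In RSKi47 cells E2f2 stood at 7.65, 7.53, 7.58 and 7.71 at 2 h, below its level without LPS in every library and above every WT library at 2 h. Each arm was set against its own libraries without LPS (for PD0325901, those at 70 min), so the size of a change does not use the WT libraries, but the test shares its estimate of the spread with the other arms. With only the arm itself in the fit, 10 and 29 genes passed at 1 and 2 h in RSKi47 cells and 20 at 1 h in PD0325901 cells, in place of 2, 19 and 7.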

How the data were processed

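RNA-seq was measured in 119 BMDM libraries, grouped by the genotype, agent and time in their labels. According to the submitters' processing notes, STAR 2.5.1b, RSEM 1.2.29 and DESeq2 1.10.1 were used with the mm10 build; the study's methods name STAR for mapping and RSEM for counting reads per RefSeq gene, in other versions than these notes. The authors deposited 1 table of normalised values for 18098 genes, taken here as log2 values because they run from -2.40 to 19.8; the transformation is not named, so low genes may be shrunk. 1 value above 25 was treated as missing. Counts were not used here, and the precision comes from the spread between libraries only.

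Values were tested as deposited with limma 3.58.1 in R 4.3.3, with p-values adjusted by Benjamini-Hochberg over all genes tested and called at 0.05. WT, Map3k8[D270A] and Elk1-/-Elk4-/- cells were compared in a fit of their 62 libraries (11884 genes that reached 10 on the linear scale in 4 or more libraries), and the other arms in a fit of all 119 (11971 genes, 3 or more libraries). Each fit shares 1 estimate of the spread over its groups. The difference of 2 LPS responses was tested as an interaction. The fitting steps were tested on simulated data.

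The 42 genes, the lists of other genes and the tests were chosen with earlier results of these data known. All 42 were accounted for by role. Full statistics were given for the called genes of largest change, up to 5 per direction in each family of comparisons, and, called or not, for Ccnd1, Ccnd2, Cdkn1a, Cdk6, E2f2, Mki67, Top2a, Mcm5 and Cdc20. Elk1, Elk4, Map3k8 and Nfkb1 served as label checks, and other cell cycle genes were given as counts per list.

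Same-numbered libraries were checked for shared deviations from their group means. Every correlation was over 0.1 in WT cells (lowest 0.164, median 0.484) and in Nfkb1[SS/AA] cells (lowest 0.145), so the numbers were taken to pair the libraries within these arms, and the counts with a replicate block stand beside the LPS responses of these arms and the comparisons between them where they differ. For LPS responses, their differences and PD0325901 without LPS the block was a fixed term. For comparisons between arms it was a random term with 1 correlation over all arms of the fit. That correlation was 0.361 in the fit of 62 libraries and 0.326 in the fit of 119. The alternatives were no filter, limma with a trend, each library centred on its median, the block, only the arms compared, WT replicates 4 to 6 with Map3k8[D270A] replicates 1 to 3 alone and the remaining replicates alone (a split by number, not named in the labels), each replicate left out, PD0325901 pairs averaged and, chosen after seeing the data, WT without replicates 8 and 9. Promoters, gene coordinates and their build came from RefSeq tables (GRCm38.p6).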

Additional observations from a re-analysis of the deposited data

Results flagged for a closer look

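In 7 of 180 tests of a single group of 4 to 6 libraries, 1 library stood far from the rest; chance alone marks about 1 group in 20. Ccnd2 in RSKi47 cells at 2 h was lowest in replicate 4, at 9.26, where the nearest library stood at 10.54. Ccnd2 in unstimulated Nfkb1[SS/AA] cells was highest in replicate 6, at 9, with the next at 8.75. Mcm5 was highest in WT replicate 7 at 2 h (10.81, next 10.39) and in Nfkb1[SS/AA] replicate 3 at 0.5 h (10.75, next 10.52). Cdkn1a was lowest in Elk1-/-Elk4-/- replicate 3 at 1 h (14.86, next 14.90) and highest in Nfkb1[SS/AA] replicate 4 at 0.5 h (14.32, next 14.16). Top2a was highest in RSKi47 replicate 2 at 1 h (11.57, next 11.54), a gap that is small in itself.

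12 changes with LPS differed from those of WT cells by the interaction test in limma. For Ccnd2 the difference was -1.45 in Map3k8[D270A] cells at 2 h, -0.76 in Elk1-/-Elk4-/- cells at 2 h, -0.67 in Nfkb1[SS/AA] cells at 1 h and -1.26 in RSKi47 cells at 2 h. For Cdkn1b it was 0.28 in Map3k8[D270A] cells at 2 h and -0.42 in Nfkb1[SS/AA] cells at 1 h. In Elk1-/-Elk4-/- cells at 2 h Ccne1 differed by 0.75 and Cdt1 by -0.26. In RSKi47 cells at 2 h Cdk6 differed by -0.37, E2f1 by 0.19 and Pcna by 0.25. In PD0325901 cells at 1 h Cdt1 differed by -0.34. Outside Map3k8[D270A] cells the genotype or inhibitor and the experiment cannot be told apart in these values.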

How the results depend on the processing

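Of 346 called gene values, recomputed 4991 times over the alternatives, none reversed, 4229 stayed past the threshold and 762 did not. The counts of called genes below moved by more than 1.5 times, and the cause was not tested beyond the change of setting itself. Without the filter the count was 2 for Map3k8[D270A] against WT at 2 h, 11 for Elk1-/-Elk4-/- against WT at 0.5 h, 1 for the difference of their 2 h responses, 3 for Nfkb1[SS/AA] against WT before LPS and 2 for the 2 h response of RSKi47 against WT cells.

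With the replicate number as a block more genes passed: in WT cells 5 after 0.5 h and 24 after 1 h, and 25 in Nfkb1[SS/AA] cells after 1 h, where the numbers pair the libraries, and 8 for Nfkb1[SS/AA] against WT before LPS. In the other arms the numbers were not taken to pair the libraries, since not every same-number correlation was over 0.1. Its lowest value and median were 0.0718 and 0.425 in Map3k8[D270A], 0.0708 and 0.318 in RSKi47, -0.217 and 0.231 in Elk1-/-Elk4-/- and -0.267 and 0.0646 in PD0325901 cells. There the block gave 19 at 1 h and 34 at 2 h in Map3k8[D270A], 17 and 38 in Elk1-/-Elk4-/-, 18 and 36 in RSKi47 and 22 at 1 h in PD0325901 cells. It gave 4 for PD0325901 at 70 against 10 min, 18, 16 and 14 for Elk1-/-Elk4-/- against WT before LPS, at 1 h and at 2 h, and 17 for RSKi47 against WT at 1 h. For the differences of responses from WT the block gave 2 at 1 h and 13 at 2 h in Map3k8[D270A], 13 at 2 h in Elk1-/-Elk4-/-, 3 at 1 h and 12 at 2 h in RSKi47 and 4 at 1 h in PD0325901 cells. Shares of all genes under the block are given above for the LPS responses within Map3k8[D270A] and RSKi47 cells. They are also given above for the 2 h response of Map3k8[D270A] against WT cells. The other block counts of these arms have no such share beside them and cannot be set against a background. Every Map3k8[D270A] and Nfkb1[SS/AA] library correlated best with its own number, as did 16 of 22 WT, 14 of 16 Elk1-/-Elk4-/-, 14 of 15 RSKi47 and 11 of 24 DMSO and PD0325901 libraries.

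With only the arms compared in the fit the count was 2 for Map3k8[D270A] against WT at 2 h and 1 for its response, 1, 4 and 7 for Nfkb1[SS/AA] against WT, 3 for DMSO, 5 for PD0325901 at 70 against 10 min, 7 for RSKi47 against WT at 2 h, 10 and 29 within RSKi47 cells at 1 and 2 h, 1 for their 2 h response against WT and 20 within PD0325901 cells at 1 h. With WT replicates 4 to 6 and Map3k8[D270A] replicates 1 to 3 alone 3 genes passed for Map3k8[D270A] against WT before LPS, at 0.5 h and at 1 h alike, and 1 for the 1 h response; with the remaining replicates, where the lone WT library at 2 h is assumed to vary like the other groups, 13 passed in WT cells at 2 h, 1 for Map3k8[D270A] against WT at 2 h and 1 for its response. With PD0325901 pairs averaged, 7 and 16 passed at 0.5 and 1 h. WT without replicates 8 and 9, limma with a trend and centring on the library median moved no count by more than 1.5 times.

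Leaving out single replicates gave 1 to 2 and 2 to 6 calls for Map3k8[D270A] against WT at 1 and 2 h; 5 to 21, 5 to 25, 3 to 23 and 5 to 10 for Elk1-/-Elk4-/- against WT at 0, 0.5, 1 and 2 h; 1 to 7 and 5 to 11 for Nfkb1[SS/AA] against WT at 0 and 0.5 h; 8 to 34 for DMSO; 0 to 1 for PD0325901 at 70 against 10 min; 17 to 37 for PD0325901 against WT at 0.5 h; and 8 to 17, 7 to 22, 10 to 18 and 8 to 19 for RSKi47 against WT. For the differences of responses it gave 1 to 2 in Map3k8[D270A], 1 to 3 in Elk1-/-Elk4-/- and 2 to 4 in RSKi47 cells at 2 h, and 1 to 2 in Nfkb1[SS/AA], 0 to 1 in RSKi47 and 0 to 1 in PD0325901 cells at 1 h. The depth of single libraries was not used to limit any call, since the table holds no counts.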
